A study of Rattus norvegicus with 22 samples.

Results

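The 78 genes described here carry the symbols of proteins of the cytosolic ribosome, or of their copies and paralogues. They were measured by RNA sequencing in the liver of 22 rats. They were taken by name from a table of 14971 genes. A row was kept when its symbol was Rpl or Rps with a number, with or without an added a, x, l or l and a number, or was Rplp0, Rplp1, Rplp2 or Rpsa. Of 79 such rows, 78 reached a mean normalised count of 10 over all libraries, 49 for the large subunit and 29 for the small one. Rpl22l2, with a mean of 8.76, fell just below that minimum, and Rps10, with 10.3, was the lowest member above it. A normalised count is a read count divided by 1 size factor for its library. It is not corrected for gene length, so levels are compared between libraries and not between genes.

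The study crossed 2 factors, surgery and inhaled gas. At 12 weeks of age, one set of rats underwent hepatic vagotomy, in which the branch of the vagus nerve to the liver is severed, and the other a sham operation. After 5 to 6 days they breathed air or 1 ppm ozone for 4 hours, once or on 2 days, and were killed within 2 hours. Every rat thus had surgery. The 4 groups are sham air (5 rats), vagotomised air (6), sham ozone (6) and vagotomised ozone (5), 1 library from each rat. Which rats were exposed on 1 day and which on 2, their strain and their sex are not named in the labels, and RNA came from whole pieces of liver of 10 to 20 mg.

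A ribosome has a small subunit, which reads the messenger RNA, and a large subunit, which joins amino acids into protein. Each is built from ribosomal RNA and a set of proteins, most of them present once, so the genes are usually expressed together. Liver exports most plasma proteins and holds many ribosomes. Most ribosomal protein messengers begin with a C followed by an unbroken run of pyrimidines, the terminal oligopyrimidine (TOP) tract. Through this tract the kinase mTORC1 and the RNA-binding protein LARP1 control their translation and stability, so that protein output can change without a change in messenger level.

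The tract is shown because it is the feature these genes share beyond their names. Windows of RefSeq (build GRCr8) were found for 60 of the 78 genes by symbol. Each printed sequence of 30 bases runs 5′ to 3′ on the gene's strand, from 10 bases before the annotated start to 20 bases from it, and capitals mark the tract. The first set holds the genes that changed with ozone and had a window.
Rps18 (chr20:4933735-4933764, + strand): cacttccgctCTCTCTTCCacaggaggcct
Rpl34 (chr2:221962264-221962293, - strand): tccttttcctCTTCCggggacggtgcttag
Rps27a (chr14:107488922-107488951, - strand): agggcggttCCTTCgacccggagactcggt
Rps6 (chr5:106420521-106420550, - strand): CTCCTaggcggtcggctgtgtcaagatgaa
Rpl12 (chr3:36661930-36661959, + strand): aacatccgtCTTTTCggctttcggttcgga

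The second set holds the most read large subunit gene, a stable stalk gene, and the genes at both ends of the library effect described later.
Rpl10 (chrX:157205840-157205869, + strand): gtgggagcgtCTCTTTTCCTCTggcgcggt
Rplp1 (chr8:71290853-71290882, - strand): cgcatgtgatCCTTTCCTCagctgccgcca
Rps23 (chr2:23814507-23814536, + strand): ccttcctgCCTCTCTTCTCTCTTTCTCTCg
Rps15 (chr7:10068096-10068125, - strand): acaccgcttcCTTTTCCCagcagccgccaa
Rps16 (chr1:92770648-92770677, + strand): aaaatcggtcggggtggccccaagctttcc
Rpl39 (chrX:121195877-121195906, - strand): taatcgcgttCTTCCggcctgtcctttctc

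A C followed by at least 4 pyrimidines stood exactly at an annotated start in 23 of the 60 genes (38.3%), against 2.63% of all 33469 windows in the table. Allowing the C to lie within 10 bases of the start gave 45 genes (75%), against 28.9% of windows. In Rps18 the tract is CTCTCTTCC and opens at the start itself, in Rps6 it lies 10 bases upstream of the annotated start, and in Rps16 none began within 10 bases of the start. Rps27a has 2 annotated starts in the table, and the printed one is that with a tract. CGGAAG, searched on both strands of the 300 bases around the start, was in 35 genes (58.3%) against 16.6% of windows, and TATAAA in 7 (11.7%) against 14.2%. AAGATGGCG was in 3 genes (5.00%) and in 1.73% of windows. A gene was counted when any of its windows matched, while the windows of the table were counted singly. Genes with several annotated starts thus had more chances to match, and the percentages of genes and windows are not the same measure. These are matches of letters and are given as a description.

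Each library held between 14098863 and 21141337 reads assigned to genes. Summed over 8 hepatocyte marker genes, normalised counts ran from 2.21e+06 to 3.14e+06 (the labelled tissue is liver), while the neutrophil markers summed to at most 88.6 and the lymphocyte markers to at most 215. In whole tissue, fewer cells of a type and less RNA per cell cannot be told apart. A set of 4 libraries stood apart from the other 18 in normalised counts of 5.8S ribosomal RNA, at 38.1 to 180 against at least 342, and of 59 small nucleolar RNAs, at 110 to 173 in sum against 1077 to 8728. One was sham ozone library 3, one vagotomised ozone library 1, and the others libraries 1 and 5 of vagotomised air, and none was from sham air. Counts of called ribosomal protein genes are therefore also given without them.

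Ribosomal protein genes took a small and similar part of every group's reads. Their share of normalised counts was 0.360% ± 0.0487 (SD, n = 5) in sham air, 0.363% ± 0.0661 (n = 6) in vagotomised air, 0.371% ± 0.0872 (n = 6) in sham ozone and 0.347% ± 0.0623 (n = 5) in vagotomised ozone. The group means lay closer together than the libraries within any one group. Without the 4 libraries low in 5.8S the shares of the 3 other groups were 0.320% ± 0.0113 (n = 4), 0.337% ± 0.0246 (n = 5) and 0.322% ± 0.0263 (n = 4) in the same order. The 4 libraries themselves held 0.437% to 0.544%, above all of the other 18, which ran from 0.284% to 0.429%. The highest of those 18 was sham air library 1.

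The balance of the subunits set sham air apart. The summed normalised counts of the large subunit genes over those of the small subunit genes were 2.85, 2.76, 2.87, 2.80 and 2.75 in the 5 sham air libraries. In the other 17 libraries the ratio ran from 2.43 to 2.67, so that no library of another group reached the lowest sham air value. Rpl10 alone did not make this gap, since without it sham air held 2.26 to 2.38 and the highest other library 2.20. Among the genes with standard symbols only, without the copies marked l, the values were 2.85 to 3.04 and at most 2.79. This ratio was singled out after its values were seen and is given with no test.

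**Figure D1:**
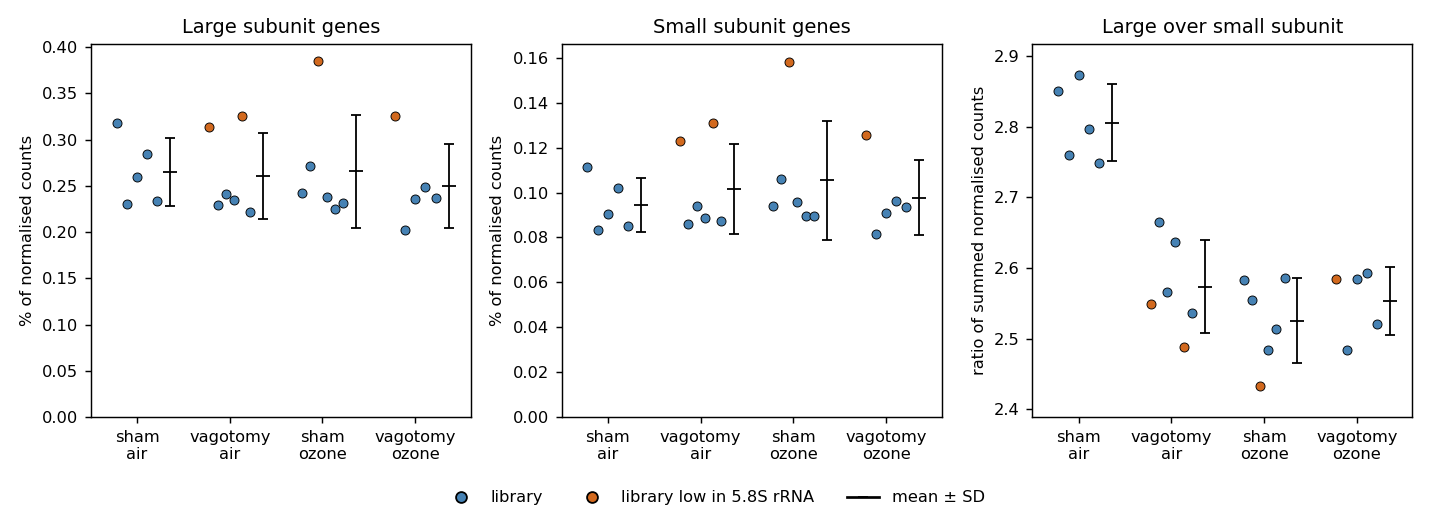
Share of normalised counts in the 49 large subunit genes (left, percent) and the 29 small subunit genes (middle, percent), and the ratio of the 2 sums (right, axis not from 0), by group, with 1 point per library and the mean ± SD beside the points. The libraries low in 5.8S (orange) hold the highest shares of their groups, and the 5 sham air libraries hold the highest ratios, 2.75 to 2.87.

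Ozone was first compared with air in rats whose hepatic vagus was intact. Changes are given as log2 fold change ± standard error, fitted with limma on log2(normalised count + 1), and a gene rose or fell when its p, adjusted over all 12424 genes tested, was under 0.05. In sham rats, 6 ribosomal protein genes rose and none fell, that is 7.69% of the 78, while 28.4% of all genes tested were called, 14.6% higher and 13.8% lower. The 3 of the large subunit were Rpl23a, Rpl30 and Rpl34, and the 3 of the small subunit were Rps6, Rps18 and Rps27a. The median change was 0.12 over the 78 genes, with 61 above 0 and 17 below, against 0.01 over all genes. By subunit the medians were 0.10 and 0.18, large and small.

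Rps18, a protein of the head of the small subunit, had the largest rise. Sham air rats had normalised counts of 29.4, 12.9, 13.9, 7.72 and 14.4, and sham ozone rats ran from 28.7 through a median of 41.5 to 47.5. Only sham air library 1 reached the ozone range. The change was 1.40 ± 0.31 (limma, adjusted p = 0.00168), and 1.36 ± 0.26 without the low 5.8S libraries (adjusted p = 0.000449). These are few reads. Rps18l1, a near copy, had 331 to 1217 where Rps18 had 7.72 to 55.3, so that 95.0% of the reads of the pair (median over libraries) were assigned to the copy, and the rise of Rps18 describes a minor part of them.

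Rps6, the small subunit protein that S6 kinase phosphorylates when growth signals are on, was counted at 2234, 1869, 1732, 2060 and 1926 in sham air. In sham ozone it ran from 2250 through a median of 2502 to 3241, with no overlap of the groups. The change was 0.39 ± 0.10 (adjusted p = 0.00420). Rpl23a, which lies at the mouth of the tunnel through which the new protein leaves, was at 407, 361, 443, 414 and 398 in sham air and between 456 and 658 in sham ozone with a median of 544, again with no overlap. It changed by 0.43 ± 0.11 (adjusted p = 0.00494).

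The other 3 rises had groups that touched. Rpl30, a large subunit protein, was at 272, 235, 244, 291 and 202 in sham air and at 284 to 411 in sham ozone (median 331), a change of 0.44 ± 0.12 (adjusted p = 0.00677). Rpl34, also of the large subunit, was at 244, 158, 151, 170 and 127 in sham air and at 205 to 307 in sham ozone (median 249), a change of 0.60 ± 0.17 (adjusted p = 0.00993). Here sham air library 1 was the one inside the ozone range. Rps27a, made as a fusion to ubiquitin that is split off afterwards, was at 2419.5, 1797, 2052, 2517 and 2065 in sham air and at 2201 to 3264 in sham ozone (median 2758). Its change of 0.33 ± 0.10 (adjusted p = 0.0193) lost its call without sham air library 2 (adjusted p = 0.0714) or sham ozone library 2 (adjusted p = 0.0508), and under 4 other settings given in the closing section.

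**Figure D2:**
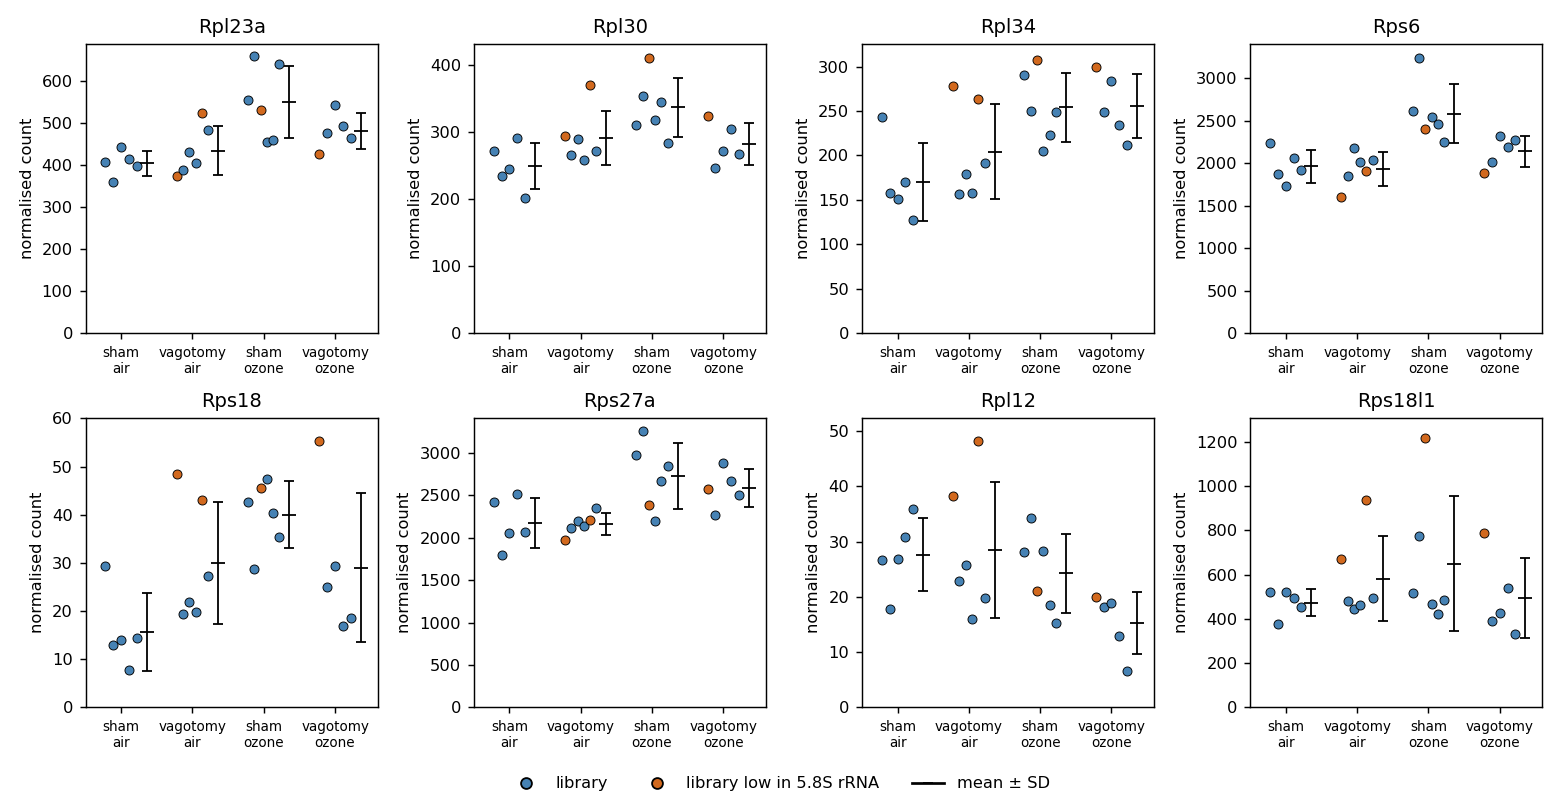
Normalised counts of the 7 genes called in an ozone comparison and of Rps18l1, the near copy of Rps18, by group, with 1 point per library, the mean ± SD beside the points, and axes that start at 0. Rpl23a and Rps6 of sham ozone lie above all sham air libraries, and Rps18 counts are 7.72 to 55.3 where Rps18l1 counts are 331 to 1217.

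Without the 4 libraries low in 5.8S the same 6 genes rose in sham rats and 3 more fell, Rpl29, Rpl31 and Rps27l, so 9 of 78 were called against 35.8% of all genes. The median change was then -0.00. Rpl29 changed by -0.39 ± 0.13 (adjusted p = 0.0237), Rps27l, a near relative of Rps27, by -0.33 ± 0.12 (adjusted p = 0.0423) and Rpl31 by -1.45 ± 0.49 (adjusted p = 0.0255). Rpl31 was at 9.81, 12.9, 25.1, 12.55 and 12.3 in sham air and at 2.18 to 8.26 in the 5 remaining sham ozone libraries. It is a gene of few reads, and its copy Rpl31l4 had 98.3% of the pair's reads (median). Leaving out sham ozone library 3 alone gave the same median. Leaving out the 4 libraries together with sham air library 1 gave a median of 0.07. There 9 genes rose and 1 fell (12.8% of the 78), against 36.2% of all genes called. The median in sham rats thus moved with libraries of both groups.

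In vagotomised rats ozone gave 1 call among the 78 genes (1.28%), a fall of Rpl12, where 21.1% of all genes were called, 11.4% higher and 9.63% lower. Rpl12 lies at the base of the stalk that recruits elongation factors. It was at 16.1 to 48.2 in vagotomised air (median 24.3) and at 20.0, 18.2, 18.9, 12.9 and 6.53 in vagotomised ozone, with overlap. The change was -0.85 ± 0.30 (adjusted p = 0.0438), and the call was lost without the 4 low 5.8S libraries (-0.63, adjusted p = 0.164), 2 of which are the highest of vagotomised air. It was also lost when any 1 of 8 libraries was left out. The median over the 78 genes was -0.10, with 19 above 0 and 59 below, and -0.03 without the 4 libraries.

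The genes that rose in sham rats gave smaller values here, though their difference between the surgeries was not past the threshold for any of them. They were picked for passing the threshold in sham rats, so smaller values in another comparison can come from that choice alone. Rps27a changed by 0.25 ± 0.10 (adjusted p = 0.0833) and Rpl34 by 0.35 ± 0.17 (adjusted p = 0.154), or by 0.51 ± 0.16 (adjusted p = 0.0238) without the low 5.8S libraries, where it was the only gene of the 78 called, against 22.6% of all genes. Rpl34 was at 157 to 278 in vagotomised air (median 185) and at 299, 249, 284, 235 and 212 in vagotomised ozone. The 2 vagotomised air libraries above 260 were both low in 5.8S, and the other 4 lay below all vagotomised ozone values. Rpl23a changed by 0.15 ± 0.11 and Rps6 by 0.15 ± 0.10, and Rps18 and Rpl30 by -0.09 ± 0.31 and -0.04 ± 0.12.

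**Figure D3:**
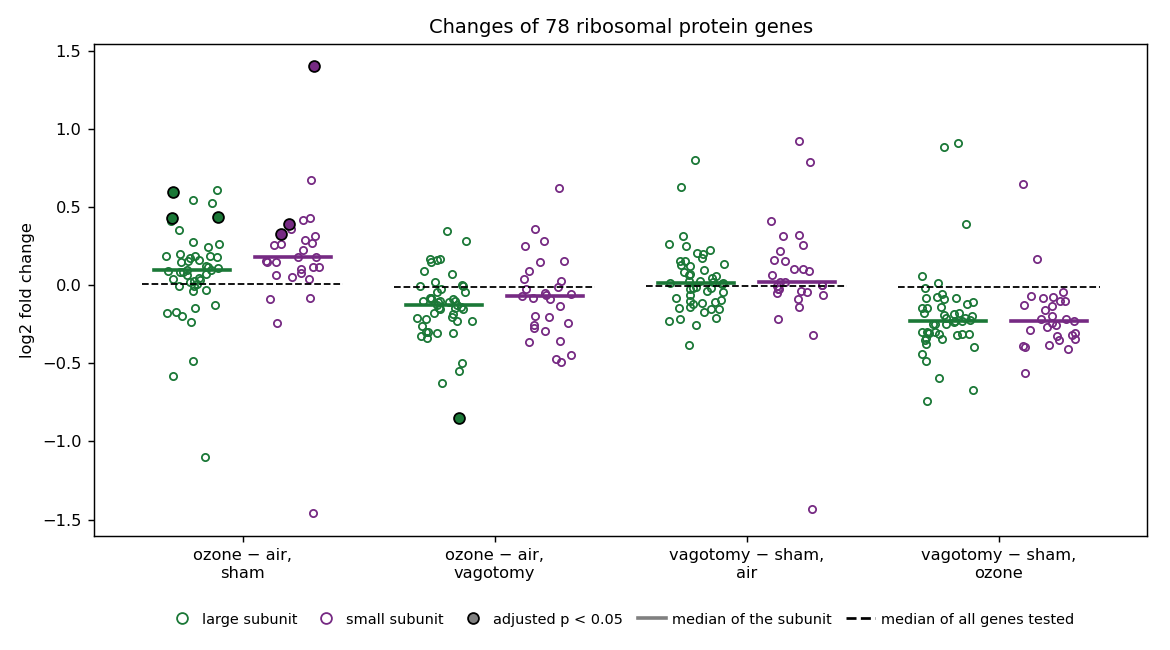
Log2 fold changes of the 78 genes in 4 comparisons, large subunit (green) and small subunit (purple), filled where the adjusted p was under 0.05, with the median of each subunit as a bar and the median of all genes tested as a dashed line. The 6 filled points of ozone in sham rats lie above 0, the 1 in vagotomised rats lies below, and in ozone 71 of 78 genes are lower after vagotomy than after sham surgery with no call.

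The test of the difference between the ozone changes, vagotomised minus sham, called no gene of the 78 and 0% of all genes. Without adjustment, p was under 0.05 for 2 of the 78 (2.56%) against 9.23% of all genes, Rps18 with -1.49 ± 0.44 (adjusted p = 0.349) and Rpl30 with -0.48 ± 0.16 (adjusted p = 0.393). Without the low 5.8S libraries p was under 0.05 for 5 (6.41%) against 12.1%. edgeR and DESeq2 on the recovered reads also called 0 of the 78, against 0% and 0.129% of all genes. The median of -0.23 over the 78 genes became -0.02 without the low 5.8S libraries.

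Vagotomy against sham surgery in air called 0 of 78 genes and 0% of all genes by limma, edgeR and DESeq2. Only Rps18 (0.93 ± 0.31) and Rps10 (0.79 ± 0.36) had an unadjusted p under 0.05, 2.56% of the 78 against 3.11% of all genes, and both had an adjusted p of 1.00. The median was 0.01 with the low 5.8S libraries, against -0.0019 over all genes, and -0.21 without them, against 0.01 over all genes. Without them 16 genes (20.5%) had an unadjusted p under 0.05, against 6.05% of all genes, and still 0 were called. With sham air library 1 left out as well it was 8 genes (10.3%) against 4.27%. Of the groups compared, only vagotomised air lost libraries low in 5.8S, and those held its highest ribosomal protein shares. The sham air libraries enter this comparison and the first, so the values of Rps18 in both rest on the same 5 rats.

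In ozone, vagotomy against sham surgery called 0 of 78 genes, against 1.34% of all genes, and edgeR and DESeq2 called 0 of the 78 as well, against 1.46% and 2.95%. Lower values were common all the same, in 71 of 78 genes, with a median of -0.23 against -0.01 over all genes. The unadjusted p was under 0.05 in 11 genes (14.1%), all lower, against 15% of all genes. It was so in 2 to 18 genes under the other settings that left out no library of these 2 groups. These ran from 2.56% against 16.6% of all genes with equal column totals to 23.1% against 15.9% with the replicate block. Without the low 5.8S libraries the unadjusted p was under 0.05 in 26 genes (33.3%) against 18.6%, with 0 called of the 78 against 2.19% of all genes. Rescaling the libraries to equal totals moved the median of all genes to 0.09 and that of the 78 to -0.13. It left an unadjusted p under 0.05 in 2 genes (2.56%) against 16.6% of all genes, and in 8 (10.3%) against 21.9% without the low 5.8S libraries. The share of the 78 above that of all genes, seen without those libraries, was thus not seen with equal totals.

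Rpl5 had the smallest p in ozone. With Rpl11 it carries the 5S ribosomal RNA into the large subunit, and when free of the ribosome both bind MDM2, the ligase that degrades p53. Rpl5 was at 2888 to 4425 in sham ozone (median 3451) and at 3089, 2532, 3021, 3136 and 2581 in vagotomised ozone, a difference of -0.31 ± 0.11 (adjusted p = 0.164), and the groups overlapped. Rpl11 differed by -0.12 ± 0.12 (adjusted p = 0.717). Rps6 differed by -0.27 ± 0.10 (adjusted p = 0.184) and Rps27 by -0.39 ± 0.16 (adjusted p = 0.237). Rps27 was at 301, 267, 293, 255 and 260 in vagotomised ozone and at 256 to 541 in sham ozone.

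Averaged over both exposures, vagotomy against sham surgery called 0 of 78 genes against 0.113% of all genes, and edgeR and DESeq2 called 0 of the 78, against 0.29% and 0.918%. The unadjusted p was under 0.05 in 8 genes (10.3%) against 9.26%, or with equal column totals in 4 (5.13%) against 10.2%. Without the low 5.8S libraries this became 40 of 78 (51.3%), each of them lower after vagotomy, against 14.2% of all genes, and 72 of 78 genes were below 0 with a median of -0.20 against 0.00. None of the 78 passed the adjusted threshold there either, against 0.201% of all genes, and the smallest adjusted p was 0.0840, of Rps23 (-0.46 ± 0.11), followed by Rpl38 (-0.56 ± 0.14, adjusted p = 0.106). Without these libraries and with equal column totals, 23 genes (29.5%) had an unadjusted p under 0.05, against 17.1% of all genes. Without these libraries and sham air library 1, with the totals as deposited, it was 32 (41.0%) against 13.6%. Genes of one ribosome are not independent of each other, so these counts describe the set and are not a test of it. The low 5.8S libraries hold the highest ribosomal protein shares, and none is of sham air. Leaving them out took the mean share of vagotomised air from 0.363% to 0.320%, while sham air stayed at 0.360%. In ozone the mean share went from 0.371% to 0.337% after sham surgery and from 0.347% to 0.322% after vagotomy. The exclusion itself thus lowered vagotomised air and not sham air.

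Rps23 and Rpl38, neither of them called, are shown as single genes. Leaving out the low 5.8S libraries, Rps23 was at 258, 154, 179, 209 and 147 in sham air and at 101 to 147 in vagotomised air. In ozone it was at 144 to 184 after sham surgery and at 112 to 139 after vagotomy. The highest vagotomised air library (147.05) lay just above the lowest sham air one (146.8), and the ozone groups did not overlap. The 258 of Rps23 was sham air library 1, the highest in ribosomal protein share of the libraries kept. Rps23 was also among the genes that stood highest in the libraries left out, as described below. Rpl38 was at 339, 171, 313, 247 and 221 in sham air and at 144 to 215 in vagotomised air, with overlap. In ozone Rpl38 was at 139 to 267 after sham surgery and at 106 to 156 after vagotomy, also with overlap.

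Members with other known roles gave few calls. Of the P stalk, which binds elongation factors, Rplp0 rose in no comparison and had 0.28 ± 0.19 in ozone in sham rats (adjusted p = 0.299), Rplp1 had 0.13 ± 0.09 (adjusted p = 0.317) and Rplp2 0.04 ± 0.35 (adjusted p = 0.952). Rplp1 was among the steadiest genes, from 3131 to 4380 over all 22 libraries. Of 9 genes of the peptide exit tunnel and its mouth, 1 rose with ozone in sham rats, Rpl23a, against 14.6% of all genes. The median over the 9 was 0.03. Rpsa, a small subunit protein also known as the laminin receptor precursor, had its smallest adjusted p, 0.578, in that comparison. Rpl10, among the last proteins to join the large subunit, had the highest read count of the set, 5460 to 9004, and its smallest adjusted p over the 6 comparisons was 0.749. Rps12, of the small subunit, was among the lowest, at 2.19 to 39.2.

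Paralogues and copies had very different parts of the reads. Rpl22l1, a paralogue of Rpl22, held 53.4% of the reads of its pair (median over libraries) and Rps27l 56.2%, while Rpl7l1 held 6.22%, Rpl5l1 9.25% and Rpl10l 0.172%. At the other end Rps10l1 held 97.4% of the reads of its pair with Rps10. RefSeq lists Rps10l1 as a pseudogene, the only one among the 76 members matched by symbol. It also names 871 pseudogenes after ribosomal protein genes, and 72 members have at least 1, with 34 for Rps2 and 9 for Rps18. How the counting treated reads that match several places is not given in the sources used here, so the level of any member with copies is uncertain. With all 22 libraries none of the paralogues tested was called in any comparison, and the nearest was Rpl7l1 with ozone in sham rats (0.36 ± 0.15, adjusted p = 0.0728).

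Wide differences among these genes lay between the low 5.8S libraries and the others of the same group. Set against the other libraries of its own group, the median ribosomal protein gene was higher by 0.68 on the log2 scale in the 2 low vagotomised air libraries, by 0.84 in the sham ozone one and by 0.62 in the vagotomised ozone one. The medians over all genes tested were -0.03, 0.00 and 0.00. Of the 78 genes, 68 (87.2%) were higher in all 3 groups, against 31.3% of all genes. The mean of the 3 group shifts was above 1 for 24 genes (30.8%), against 2.60% of all genes, and in 27 genes (34.6%) all 4 libraries exceeded all of the other 18, against 3.53% of all genes. These libraries were told apart by 5.8S ribosomal RNA, which is not among the 78 genes. No test is given, because the 4 libraries were not a group of the study.

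The shift differed greatly from gene to gene. Rps16, a small subunit protein, was at 627 and 858 in the low vagotomised air libraries, 1170 in the sham ozone one and 607 in the vagotomised ozone one, and at 134 to 333 in the other 18. Rps23, at the decoding centre of the small subunit, was at 630 to 730 in the 4 libraries and at 101 to 258 elsewhere. Their mean shifts were 2.35 and 2.31, followed by Rps15 (2.18) and Rpl6 (2.18) and by Rps14 (1.93), which was at 1053 to 1789 against 280.4 to 613. In these genes the 4 libraries stood well clear of all others.

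A few genes did not follow. Rpl39, a very short protein of the exit tunnel, shifted by -0.59, from 119 to 137 in the 4 libraries against 109 to 311. Rps6 (-0.18), Rps27a (-0.10) and Rpl23a (-0.07) shifted least below 0, and these 3 are among the 6 genes that rose with ozone in sham rats. In the same 4 libraries the 2 erythroid markers measured summed to 2833 to 4153, against 1210 to 3191 in the others, and the cholangiocyte markers to 195 to 248 against 136 to 246. The hepatocyte markers summed to 2.71e+06 to 3.14e+06 against 2.21e+06 to 3.07e+06. Lymphocyte markers summed to 81.1 to 167 against 94.1 to 215, and neutrophil markers to 19.1 to 79.1 against 20.7 to 88.6. For Kupffer cells and macrophages the sums were 4962 to 7530 against 4836 to 10092. Stellate cell and fibroblast markers summed to 2799 to 6751 against 3069 to 7087, and endothelial markers to 3649 to 4717 against 3159 to 4890. In each of these cell types the ranges overlapped. The part of these cells, or of the loss of small RNAs, in the shift was not tested.

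**Figure D4:**
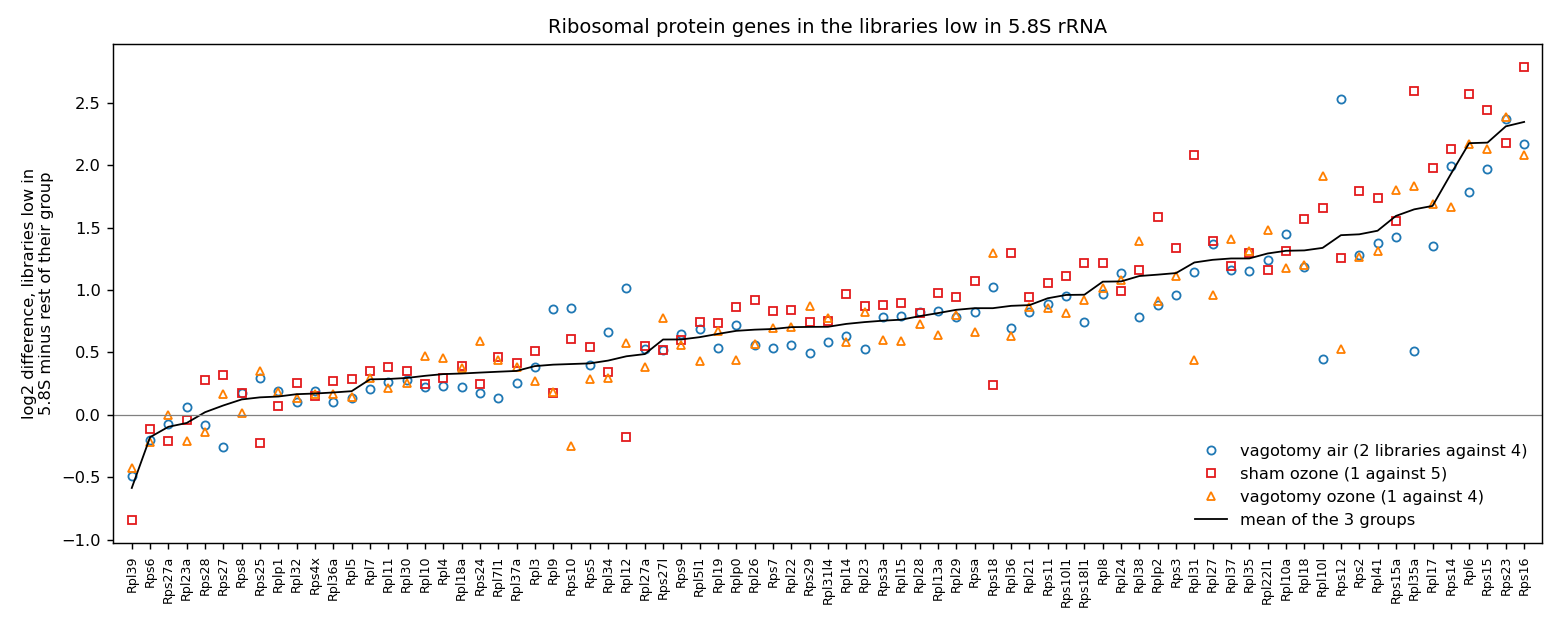
Log2 difference between the libraries low in 5.8S and the remaining libraries of the same group for 77 of the 78 genes, ordered by the mean of the 3 groups (line), with 1 symbol per group. All 3 symbols lie above 0 for 68 genes, Rps16 and Rps23 lie at the upper end with means of 2.35 and 2.31, and Rpl39 lies at the lower end with -0.59.

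Without these libraries the set became nearly as even as other genes. The SD of log2 values within groups had a median of 0.38 over the 78 genes in 22 libraries, against 0.28 over all genes tested, and of 0.24 in the other 18 libraries, against 0.23. The steadiest were Rps4x, the small subunit protein encoded on the X chromosome, with 0.12, Rplp1 with 0.13 and Rps6 with 0.15. Rpl35a, a large subunit protein, stayed at 1.63 in the 18 libraries and ranged from 2.10 to 61.9 there, with high and low libraries in each group.

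Changes were also set out by the TOP tract, with no test. With ozone in sham rats the 23 genes with a tract at the annotated start had a median of 0.19, the 22 with a tract within 10 bases 0.09 and the 15 with neither 0.15. In the low 5.8S libraries the medians were 0.73, 0.48 and 1.12. The ranges of the 3 classes overlapped widely, and an annotated start can differ from the start used in liver. Of the genes that rose, Rps18 and Rpl34 carry a tract at the start and Rps27a and Rps6 one nearby, likewise a description.

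Many of the genes that build ribosomes rose with ozone, a larger share than of the ribosomal protein genes themselves. Of 34 nucleolar assembly factors, 24 rose in sham rats and none fell, with a median of 0.51. In vagotomised rats 17 rose, with a median of 0.35. Of all genes tested, 14.6% rose in sham rats and 11.4% in vagotomised rats. Gnl3, the nucleolar GTPase nucleostemin, rose by 1.31 ± 0.15 (adjusted p = 1.04e-06) in sham rats and by 0.85 ± 0.15 (adjusted p = 0.000246) in vagotomised rats. Rrp12, which acts in export of pre-ribosomes, rose by 1.08 ± 0.13 and 0.82 ± 0.13, and Nolc1, a nucleolar phosphoprotein, by 0.81 ± 0.10 and 0.79 ± 0.10. Of 23 chaperones, importins and late assembly factors, 10 rose in sham rats and 6 in vagotomised rats. Among them Rrs1, which brings the 5S particle to the pre-ribosome, rose by 1.05 ± 0.18 and 0.90 ± 0.18, and Grwd1, a chaperone of Rpl3, by 0.64 ± 0.14 in sham rats (adjusted p = 0.00117). The one member of these lists that differed between the surgeries in ozone was Nob1, the nuclease that trims the small subunit RNA, with -0.51 ± 0.13 (adjusted p = 0.0472), a call lost with equal column totals (adjusted p = 0.102) and with equal upper quartiles (adjusted p = 0.0708). Under these scalings and without the low 5.8S libraries, 17 to 24 of the 34 assembly factors rose in sham rats and none fell, and 15 to 16 rose in vagotomised rats. Of the 23 chaperones and late factors, 7 to 12 rose in sham rats under the same settings. These settings called 28.5% to 35.8% of all genes in sham rats and 19.2% to 22.6% in vagotomised rats.

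Of 26 translation factors not usually counted among the TOP genes, 15 rose and 1 fell in sham rats with a median of 0.34, and 10 rose in vagotomised rats with a median of 0.22. Of all genes tested, 28.4% were called in sham rats and 21.1% in vagotomised rats. Without the low 5.8S libraries 17 of the 26 rose and 1 fell in sham rats, against 35.8% of all genes called. In vagotomised rats 13 of the 26 then rose, against 22.6% of all genes called. Eif2b3, part of the factor that recharges eIF2, rose by 0.85 ± 0.11 and 0.94 ± 0.11, and Eif4a1, the helicase that opens messenger leaders, by 0.59 ± 0.09 and 0.46 ± 0.09. Of 22 other genes whose messengers carry a TOP tract, 4 rose in each surgery, where 14.6% of all genes rose in sham rats and 11.4% in vagotomised rats, and the medians were 0.16 and -0.04. Without the low 5.8S libraries 5 and 4 rose. Hnrnpa1, an RNA-binding protein, rose by 0.47 ± 0.10 and 0.40 ± 0.10, and Btf3, a subunit of the complex that meets new protein at the tunnel, by 0.40 ± 0.10 and 0.33 ± 0.10. Fau and Rack1, ribosomal proteins whose symbols lie outside the naming rule, were not called, with 0.28 ± 0.25 and 0.06 ± 0.17 in sham rats.

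**Figure D5:**
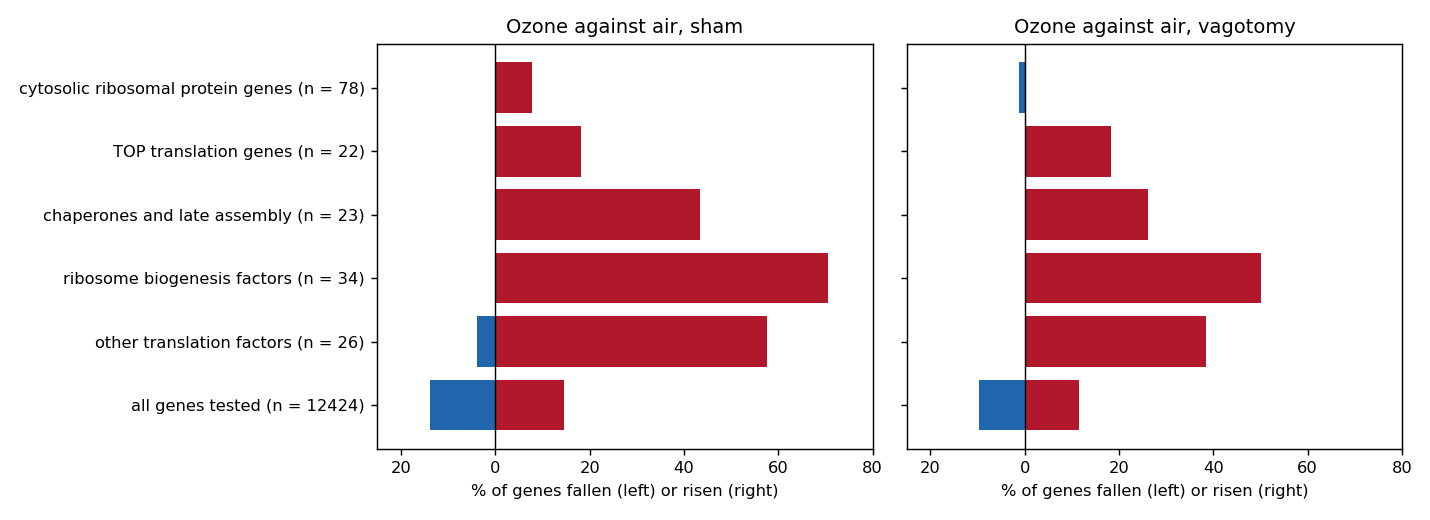
Share of each gene list that fell (left, blue) or rose (right, red) with ozone at an adjusted p under 0.05, in sham and in vagotomised rats, with the number of genes tested in brackets. Assembly factors reach 24 of 34 risen in sham rats, ribosomal protein genes 6 of 78.

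The regulators of TOP messengers changed in both directions. Of 18 genes, 6 rose and 3 fell in sham rats, and 3 rose and 3 fell in vagotomised rats. Of all genes tested, 14.6% rose and 13.8% fell in sham rats, and 11.4% rose and 9.63% fell in vagotomised rats. Without the low 5.8S libraries the counts of the 18 were 6 and 3, and 2 and 4. There 35.8% and 22.6% of all genes were called. Larp1, which binds TOP messengers, rose by 0.48 ± 0.11 in sham rats (adjusted p = 0.00238). Eef2k, the kinase that slows elongation, fell by 0.59 in sham rats and by 0.74 in vagotomised rats. Pdcd4, an inhibitor of the eIF4A helicase, changed by -0.69 ± 0.15 in sham rats (adjusted p = 0.00115). In vagotomised rats Pdcd4 changed by -0.43 ± 0.10 without the low 5.8S libraries (limma, adjusted p = 0.00476). Larp1 changed by 0.28 ± 0.12 there (adjusted p = 0.111), and by 0.31 ± 0.11 with equal upper quartiles (adjusted p = 0.0394).

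A further list held 8 stress and growth genes, taken as readouts of mTORC1 and of the transcription factor ATF4. Of these 8, 4 rose in sham rats with ozone, against 28.4% of all genes called. In vagotomised rats none rose and Myc fell by 1.77, against 21.1% of all genes called. In sham rats 3 rose without the low 5.8S libraries, and likewise with equal column totals or equal upper quartiles. These settings called 28.5% to 35.8% of all genes. Sesn2 and Ddit4, both inhibitors of mTORC1, rose in sham rats by 1.67 ± 0.29 and 0.98 ± 0.27. In ozone they were lower after vagotomy than after sham surgery, by -1.16 ± 0.29 (adjusted p = 0.0456) and -1.33 ± 0.27 (adjusted p = 0.0188). Ddit4 had normalised counts of 61.0, 58.6, 45.0, 26.7 and 17.7 in vagotomised ozone and of 55.6 to 130 in sham ozone, so 2 vagotomised libraries reached the sham range. The test of the difference between the 2 ozone changes called none of the 8.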

How the data were processed

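The deposited values are a signal per gene and library: the authors' read count over that library's size factor. STAR, Partek, DESeq and DESeq2 were used with build rn6, without versions, per the submitters' processing notes. The RNA-seq libraries came from a PrepX kit, per the labels' protocols, and the counting is not given in the sources used here. In all 22 columns every value (100%) was a multiple of 1 step within 0.001, which gave back reads for edgeR 4.0.16 and DESeq2 1.42.0, and 0 columns were left out.

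limma 3.58.1 (R 4.3.3, empirical Bayes with intensity trend) fitted 4 group means to log2(count + 1) over 22 libraries for the 12424 genes with a mean of at least 10. Two-sided p-values were adjusted by Benjamini-Hochberg over these genes. A fold change on this scale understates that of low genes. Members, lists, markers and the naming rule were chosen with earlier results of these data known. The rule named every called member, the 3 with the smallest p where fewer than 3 were called, the stalk genes, Rpsa, Rpl5, Rpl11, the 3 highest, the 3 lowest and the paralogues, and up to 3 genes of each other list. Members named for the low 5.8S libraries, for spread, copies or in the fit without those libraries, and Ddit4's and Rpl38's single values, were chosen after their values were seen. Libraries with 5.8S under 200 counted as low. The values of 1 member are not reported here.

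Simulated data of known folds were used to test the fit. No libraries of 1 group were copies of each other (50 pairs, lowest chi-square per degree of freedom 9.30). Symbols were matched to RefSeq GRCr8, another build than rn6, so coordinates are those of the printed windows only. Each library is 1 rat per the labels, and p-values measure the spread between rats. Figures used Python 3.11.15 and matplotlib 3.10.9.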

Additional observations from a re-analysis of the deposited data

Results flagged for a closer look

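Of 112 groups tested for a single distant library, 14 had one, where chance gives about 1 in 20, or 5.6. The shares contain each other and the genes come from the same libraries, so the 14 are not separate results. Sham ozone library 3, one of the libraries low in 5.8S, stood apart in its share of normalised counts in ribosomal protein genes, 0.544% against 0.315% to 0.378% in the rest of its group. It did so for the large subunit (0.385% against 0.225% to 0.271%) and for the small subunit (0.158% against 0.0894% to 0.106%), and for normalised counts of Rpl22l1 (821 against 267 to 464), Rpsa (2217 against 924 to 1374) and Rpl31 (21.9 against 2.18 to 8.26). Vagotomised ozone library 1, also low in 5.8S, stood apart in Rpl22l1 (769.6 against 233 to 323) and Rplp2 (23.8 against 11.2 to 13.9). Vagotomised air library 5, low in 5.8S as well, did so in Rpl30 (369 against 258 to 294) and Rpl5 (3596 against 2798 to 3067).

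The other 4 were in libraries not low in 5.8S. Rpl31 was at 25.1 in sham air library 3 against 9.81 to 12.9, and Rps6 at 3241 in sham ozone library 2 against 2250 to 2613. Rpl36a was low in library 2 of both vagotomised groups, at 80.1 against 109 to 126 in air and at 69.1 against 107 to 118 in ozone.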

How the results depend on the processing

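With ozone in sham rats, 12 of 14 alternatives gave 5 to 9 called genes of the 78, against 6. Of all genes, 23.9% to 35.8% were called in those 12. Leaving out the 4 low 5.8S libraries gave 14 (17.9%, 5 higher, 9 lower) with equal column totals, against 36.1% of all genes. With sham air library 1 also left out it gave 10 (12.8%, 9 higher, 1 lower), against 36.2% of all genes. Both settings were chosen after seeing the data. Leaving out 1 library in turn gave 5 to 7. Equal column totals moved the share of risen among all called genes from 51.3% to 33.9% and the median of all genes to -0.09. The call of Rps27a was lost with equal column totals (adjusted p = 0.0671), equal upper quartiles (0.0603), the replicate block (0.0556) and only the groups compared (0.0630). In vagotomised rats the count was 1, and 0 to 2 without 1 library in turn. It was 0 at a minimum mean of 50, which leaves Rpl12 out, where 24.8% of all genes were called. Without the low 5.8S libraries and sham air library 1 it was 4 (5.13%), against 24.9% of all genes. Rpl12 lost its call without sham air 3 or 4, vagotomised air 1, 2, 3 or 5, or vagotomised ozone 4 or 5 (adjusted p up to 0.156), and with only the groups compared (0.0912). Without vagotomised ozone library 1 the count was 2. Changes of Rpl30 near 0 turned to 0.0027 without the low 5.8S libraries, with or without sham air library 1, and ranged from -0.091 to 0.030 without 1 library in turn, those of Rps18 from -0.34 to 0.070. The causes were not tested. The 4 other comparisons gave 0 throughout. Samples share only a replicate number: deviations of same-numbered libraries correlated at -0.317 to 0.608. With the replicate block 7 genes (8.97%) were called in sham rats, 5 of them shared, against 26.6% of all genes. In vagotomised rats 1 was called, against 20.0% of all genes, and elsewhere 0, against at most 1.32%. Shares without small RNA rows or without paralogues moved by less than 1 SD. Rps18, Rpl12 and Rpl31 rest on few reads.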
